A study of Rattus norvegicus with 20 samples.

Results

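Crybb1, Magix, Cyp2e1, Aqp7, Macrod1, Lynx1, Phyhip, Klhl38, Phlda1 and Txlnb are 10 genes that are seldom discussed in the heart and that had large falls in the right ventricular outflow tract of rats with chronic pulmonary embolism. They were selected on the outflow signals of PE2.0 and vehicle rats, so the outflow values below describe the choice and carry no test. They are 10 of 14217 genes named on the arrays, and every probe set with a single symbol among them was taken, 12 of the 31042 tested. Lynx1 and Txlnb have 2 probe sets each, and the brighter one on average stands for the gene. The rule set no numerical threshold: ranked by fall among all genes, Crybb1 was at place 1 and Magix at place 2, and Phlda1 came last of the 10 at place 127. These places depend on the value of 16 added before the logarithm: adding 64 put Aqp7 at place 1, Crybb1 at 7, Magix at 12 and Phyhip at 110.

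RNA from the right ventricle of male Sprague Dawley rats of about 350 g was measured on 20 Affymetrix arrays, 1 per tissue sample, in 4 groups of 5. The PE2.0 rats were injected through the right jugular vein with 2000000 polystyrene microspheres of 25 micron per 100 g in 0.01% Tween-20, and the vehicle rats received 0.01% Tween-20 without microspheres. The spheres lodge in the lung circulation and load the right ventricle, and the tissue was taken after 6 weeks. The groups are PE2.0 outflow, vehicle outflow, PE2.0 apex and vehicle apex, where outflow is the base of the right ventricle. No genetic change is given for any group. The groups follow the sample titles, since a protocol field gives the vehicle text for every sample. The labels call the replicates biological.

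The right ventricle pumps blood into the lungs and has a thin wall that is built for low pressure. Working heart muscle burns mainly fatty acids in its mitochondria, and glycerol, peroxisomal and detoxifying enzymes support this. Several of the 10 genes are better known elsewhere: Crybb1 as a lens protein, Cyp2e1 as a liver enzyme and Phyhip as a brain protein.

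Promoters of 5 of the 10 genes were at hand (RefSeq, build GRCr8, 250 bases before to 50 after the start): Crybb1, Magix, Cyp2e1, Macrod1 and Phlda1. The 3 below are shown because they hold AGGTCA, the half-site bound by several nuclear receptors of lipid metabolism, which was present on either strand in 16.2% of 33469 rat promoters of this length. Capitals mark that motif and, in Cyp2e1, TATAAA and a MEF2 match, the sequence of a muscle transcription factor family.
Crybb1, chr12:50043707-50044006, minus strand: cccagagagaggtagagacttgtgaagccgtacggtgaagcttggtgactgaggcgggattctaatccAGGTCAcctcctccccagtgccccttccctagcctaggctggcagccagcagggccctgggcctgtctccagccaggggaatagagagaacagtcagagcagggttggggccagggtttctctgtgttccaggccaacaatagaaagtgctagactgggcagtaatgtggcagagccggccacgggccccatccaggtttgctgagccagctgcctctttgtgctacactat
Magix, chrX:17495842-17496141, plus strand: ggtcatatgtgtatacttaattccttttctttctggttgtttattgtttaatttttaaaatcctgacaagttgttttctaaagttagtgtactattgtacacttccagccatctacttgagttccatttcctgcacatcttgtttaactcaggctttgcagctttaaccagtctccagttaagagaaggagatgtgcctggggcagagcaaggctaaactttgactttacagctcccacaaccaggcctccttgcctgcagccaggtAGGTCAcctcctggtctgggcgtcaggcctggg
Cyp2e1, chr1:205269717-205270016, plus strand: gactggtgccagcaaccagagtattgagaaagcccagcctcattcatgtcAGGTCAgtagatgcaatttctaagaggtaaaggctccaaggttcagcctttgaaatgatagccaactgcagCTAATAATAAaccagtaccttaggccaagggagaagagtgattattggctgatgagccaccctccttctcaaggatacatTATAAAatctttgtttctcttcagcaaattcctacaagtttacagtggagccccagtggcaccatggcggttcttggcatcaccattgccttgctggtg
In all, 8 motifs were searched on both strands, and no matches within the 5 promoters overlapped each other. TATAAA was in 1 of the 5 promoters and in 14.2% of all promoters. The MEF2 motif was in 1 of the 5 and in 3.29% of all. CANNTG was in 4 of the 5 and in 72.1% of all, and GGGCGG was in 2 of the 5 and in 33.1% of all. GATAA (26.5% of all), CATTCC (14.2% of all) and the CArG motif (1.64% of all) were in 0 of the 5. The GC content was 59.0% in Crybb1, 44.3% in Magix, 46.0% in Cyp2e1, 63.0% in Macrod1 (chr1:213675227-213675526, plus strand) and 77.0% in Phlda1 (chr7:48853440-48853739, plus strand), against a median of 51.7% over all promoters.

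Before any gene was considered, PE2.0 outflow replicates 2, 4 and 5 stood apart in the GAPDH 3' to 5' ratio, which rises when RNA is degraded. The ratio was 1.70 to 6.12 in PE2.0 outflow, 1.38 to 1.66 in vehicle outflow, 1.47 to 1.67 in PE2.0 apex and 1.44 to 1.83 in vehicle apex. Replicate 2 had the ratio of 6.12, and replicates 4 and 5 had 2.20 and 2.34. Replicates 1 and 3, at 1.71 and 1.70, lay within the vehicle apex range. The mean correlation of an array with the others of its group was 0.929 to 0.963 in PE2.0 outflow and 0.966 to 0.969 in vehicle outflow. It was 0.969 to 0.971 in PE2.0 apex and 0.962 to 0.968 in vehicle apex. Heart muscle markers (15 measured of 16 listed, among them troponins and myosins) summed to a signal of 228192 to 626503 in PE2.0 outflow and 527596 to 618856 in vehicle outflow, and 14 of the 15 fell, with a median log2 fold change of -0.87. Markers of several other cell types rose: 10 of 11 for fibroblasts, 10 of 11 for myeloid cells, 6 of 7 for smooth muscle and 5 of 7 for cartilage and tendon. Their summed signals in PE2.0 outflow were 174210 to 201049 for fibroblasts, 8789 to 24248 for myeloid cells, 21684 to 50608 for smooth muscle and 2160.3 to 6455 for cartilage and tendon. In vehicle outflow they were 69445 to 101381 for fibroblasts, 6770.0 to 7761 for myeloid cells, 7361 to 10466 for smooth muscle and 1283 to 1708 for cartilage and tendon. The groups did not overlap in any of these 4 sums. Of the endothelial markers 2 of 10 rose and 1 fell, with a median log2 fold change of -0.06. Of the skeletal muscle markers 4 of 8 rose and 1 fell, and of the atrial markers 1 of 3 rose and 0 fell. Over all genes 26.3% were called higher and 18% lower in the outflow. The part of these markers in the falls of the 10 genes was not tested beyond the values given below. In these bulk samples, fewer cells of a type and less RNA per cell cannot be told apart.

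In the outflow, all 12 probe sets of the 10 genes had every PE2.0 array below every vehicle array, a separation that 9.98% of all probe sets showed. This count follows from how the genes were chosen, and they were not tested in the outflow. Over all probe sets, 14.9% were called lower there, 19.6% higher and 34.5% in either direction (limma adjusted p under 0.05). The median log2 fold change of the 10 genes was -2.38, with a range of -3.06 to -1.73, or 3.33- to 8.36-fold lower, and the median of all 14217 genes was 0.10. In the apex, which the choice did not use, 0 of the 12 probe sets were called, against 0.0129% of all probe sets. There 2 of 12 (Cyp2e1 and Lynx1) had an unadjusted p under 0.05, with a lower signal, against 7.47% of all in either direction and 3.09% lower. The apex median over the 10 genes was -0.47, with 9 of 10 negative, against 49.3% of all probe sets negative and a median of 0.00 over all genes. In 4 of the 12 probe sets all 5 PE2.0 apex arrays lay below all vehicle apex arrays, as in 1.5% of all. Of the 15 heart muscle markers 0 were called in the apex, but their median log2 fold change was -0.20, and their summed signal of 466105 to 536096 in PE2.0 apex did not overlap that of 540508 to 621209 in vehicle apex.

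**Figure D1:**
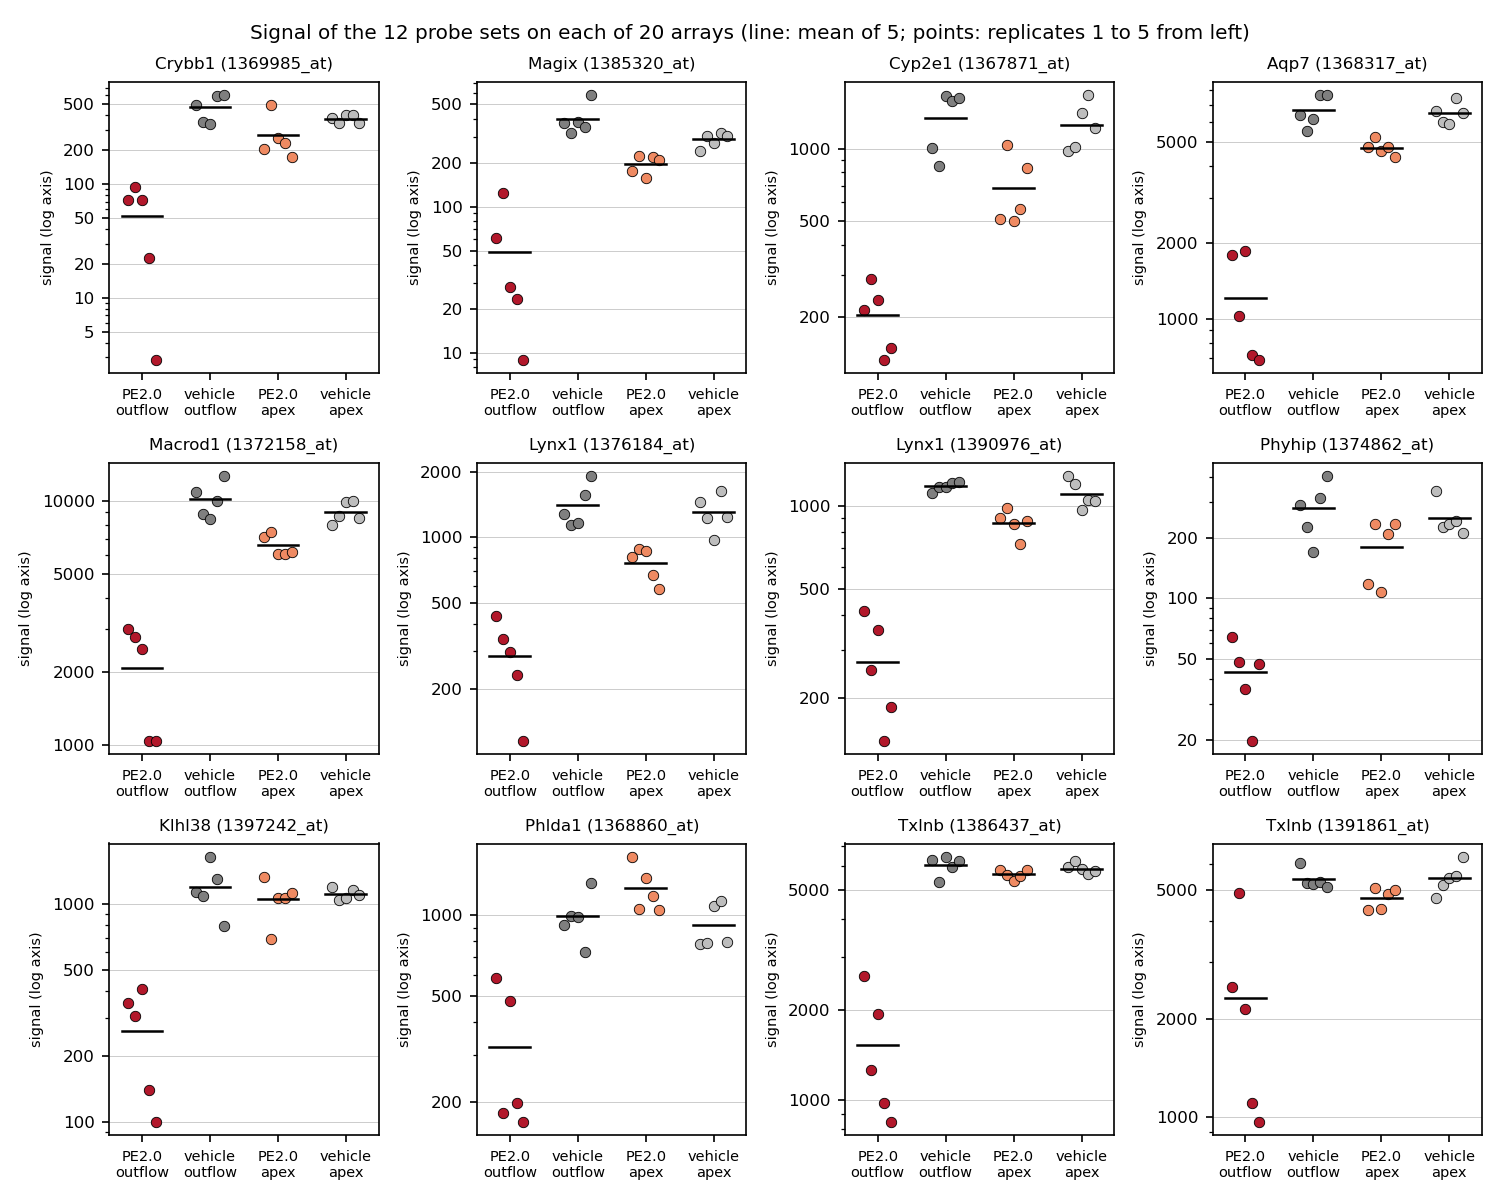
Signal on a log axis for each of the 12 probe sets, 1 point per array and a line at the mean of 5, in PE2.0 outflow, vehicle outflow, PE2.0 apex and vehicle apex. The PE2.0 outflow points lie below all vehicle outflow points in every panel, as low as 2.86 for Crybb1, while the apex groups lie closer to each other.

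Among the genes of metabolism, Aqp7 encodes a membrane channel for water and glycerol of fat and heart cells. Its signal was 1779, 1024, 1847, 719 and 689 in PE2.0 outflow, replicates 1 to 5 in this order throughout, against 6391, 5537, 6161, 7627 and 7671 in vehicle outflow. Every PE2.0 array was far below the lowest vehicle array, and replicates 4 and 5 were lowest. The log2 fold change was -2.56 ± 0.22 (SE), or 5.90-fold lower. In the apex Aqp7 had 4775, 5209.7, 4579, 4751 and 4338 in PE2.0 rats, against 6639.8, 5961, 5894, 7441 and 6473 in vehicle rats. The apex groups did not overlap, but the log2 fold change of -0.45 ± 0.22 was not called (limma adjusted p = 0.688). Since Aqp7 is also a fat cell gene, fat cell markers (10 measured of 12) stand beside it. In the outflow 4 of them rose and 3 fell, and their summed signal was 14051 to 22219 in PE2.0 rats and 23570 to 29628 in vehicle rats. Adipoq, the fat hormone adiponectin, averaged 818 in PE2.0 outflow and 70.6 in vehicle outflow, a log2 fold change of 3.15 ± 0.53 (limma adjusted p = 9.88e-05). The others that rose were Plin1 (3.45), Cidec (3.32) and Cfd (1.96). Those that fell, the direction of Aqp7, were Cidea (-1.70), Plin4 (-1.33) and Fabp4 (-0.71). The part of these markers in the fall of Aqp7 was not tested.

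Cyp2e1 encodes a cytochrome P450 that oxidises ethanol, acetone and small toxicants. It had 214, 289, 236, 133 and 149.6 in PE2.0 outflow, against 1006, 852, 1662, 1589 and 1632 in vehicle outflow. The vehicle arrays fell into a lower pair and a higher trio, and all of them were far above the PE2.0 arrays. The log2 fold change was -2.63 ± 0.25, or 6.18-fold lower. In the apex it had 509.7, 1035, 502, 564 and 836 in PE2.0 rats, against 978, 1023, 1418, 1680.5 and 1220.2 in vehicle rats. Replicate 2 of the PE2.0 apex overlapped the vehicle arrays and the other 4 lay below them. Cyp2e1 had the lowest apex p of the 10 genes, with a log2 fold change of -0.89 ± 0.25 (1.85-fold lower), but it was not called (limma adjusted p = 0.346). Of 8 liver markers 1 rose and 1 fell in the outflow, with a summed signal of 284 to 922 in PE2.0 outflow and 853 to 1084 in vehicle outflow. The one that fell, Ttr, the transport protein transthyretin, averaged 388 in PE2.0 outflow and 780.3 in vehicle outflow (log2 fold change -1.09 ± 0.22, limma adjusted p = 0.000534). The one that rose was Serpina1, a protease inhibitor of plasma, at 0.60 (adjusted p = 0.0471). Alb, serum albumin, averaged 23.6 in PE2.0 outflow and 33.6 in vehicle outflow and was not called. The part of these markers in the fall of Cyp2e1 was not tested.

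Macrod1 encodes a mitochondrial enzyme that removes ADP-ribose from proteins. It had 2979, 2766, 2469, 1042 and 1043 in PE2.0 outflow, against 10843, 8808, 8444, 9979.9 and 12671 in vehicle outflow. Replicates 4 and 5 of PE2.0 outflow had less than any other array. The log2 fold change was -2.42 ± 0.25, or 5.36-fold lower. In the apex Macrod1 had 7104, 7489, 6080.0, 6079.9 and 6152 in PE2.0 rats, against 7994, 8701, 9863, 9959.6 and 8516 in vehicle rats. These groups did not overlap, and the log2 fold change of -0.45 ± 0.25 was not called (limma adjusted p = 0.734).

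Of the genes best known from muscle, Klhl38 encodes a kelch protein of the family that hands substrates to the cullin 3 ubiquitin ligase. It had 349.8, 306, 409, 141 and 100.2 in PE2.0 outflow, against 1135, 1082, 1646, 1298 and 795 in vehicle outflow. The groups did not overlap, and the log2 fold change was -2.25 ± 0.29, or 4.76-fold lower. In the apex it had 1329, 694, 1059, 1061 and 1125 in PE2.0 rats, against 1195, 1043, 1065, 1159.7 and 1094 in vehicle rats. These overlapped widely, with a log2 fold change of -0.10 ± 0.29 (limma adjusted p = 0.969), which became 0.036 without PE2.0 apex replicate 2.

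Txlnb encodes beta-taxilin, a muscle member of a family that binds syntaxins. Its brighter probe set had 2591, 1260.2, 1929.6, 978 and 846 in PE2.0 outflow, against 6310.0, 5334, 6458, 5949 and 6234 in vehicle outflow. Its other probe set had 2516, 4911, 2143, 1098 and 965 in PE2.0 outflow, against 6052, 5273, 5233, 5285 and 5128 in vehicle outflow. The probe sets followed each other except on PE2.0 outflow replicate 2, the array with the GAPDH ratio of 6.12, where the other probe set came close to the vehicle arrays. Their log2 fold changes were -2.10 ± 0.21 (4.30-fold lower) and -1.46 ± 0.29 (2.75-fold lower). In the apex the brighter probe set had 5349 to 5855 in PE2.0 rats and 5646 to 6267 in vehicle rats. The apex difference was -0.06 ± 0.21 on the log2 scale (limma adjusted p = 0.976), and -0.20 ± 0.29 for the other probe set (adjusted p = 0.926).

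Among genes of signalling, Lynx1 encodes a membrane-anchored Ly6 protein that dampens nicotinic acetylcholine receptors in the brain. Its brighter probe set had 436, 339.6, 297, 231 and 115 in PE2.0 outflow, against 1288, 1144, 1172, 1568 and 1927 in vehicle outflow. Its other probe set had 416, 253, 355, 140.1 and 186 in PE2.0 outflow, against 1117, 1169.7, 1174, 1206 and 1222 in vehicle outflow. Both separated the groups by a wide gap, with log2 fold changes of -2.34 ± 0.25 (5.08-fold lower) and -2.16 ± 0.20. In the apex the brighter probe set had 811, 883, 865, 669 and 578 in PE2.0 rats, against 1455, 1233, 977, 1643 and 1239 in vehicle rats. The groups did not overlap, with a log2 fold change of -0.77 ± 0.25 (limma adjusted p = 0.442). The other probe set gave -0.34 ± 0.20 in the apex (adjusted p = 0.76), with 4 of 5 PE2.0 arrays below all vehicle arrays.

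Phyhip encodes a protein that binds phytanoyl-CoA hydroxylase, a peroxisomal enzyme of branched fatty acids. It was dim, with 64.6, 48.3, 35.8, 19.7 and 47.2 in PE2.0 outflow, against 292, 227, 169.6, 314 and 405 in vehicle outflow. The log2 fold change was -2.33 ± 0.26, or 5.02-fold lower. At such signals the value added before the logarithm matters, and adding 64 instead of 16 gave -1.66. In the apex it had 119, 233, 108, 208 and 235 in PE2.0 rats, against 339, 226, 233, 243 and 212 in vehicle rats, which overlapped (log2 fold change -0.49 ± 0.26, limma adjusted p = 0.719).

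Phlda1 encodes a small pleckstrin-homology-like protein that stress and growth factors induce and that has been linked to cell death. It had 585, 183, 478, 198 and 169 in PE2.0 outflow, against 922, 992, 984, 730.2 and 1328 in vehicle outflow. Replicates 1 and 3 lay apart from the other 3 PE2.0 arrays, and with these 2 alone the log2 fold change was -0.86, against -1.73 ± 0.28 (3.33-fold lower) with all 5. In the apex it had 1659.7, 1055, 1376, 1187 and 1046 in PE2.0 rats, against 784, 788, 1083, 1137 and 793 in vehicle rats. It was the single gene of the 10 with a positive apex value, 0.45 ± 0.28, with 3 of 5 PE2.0 arrays above all vehicle arrays, and it was not called (limma adjusted p = 0.775).

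The remaining genes encode structural or scaffold proteins. Crybb1, a beta crystallin of the eye lens, had 71.7, 94.2, 71.7, 22.5 and 2.86 in PE2.0 outflow, against 494, 348, 339.9, 593 and 609 in vehicle outflow. The groups were far apart, and replicate 5 was near 0. The log2 fold change was -3.06 ± 0.38, or 8.36-fold lower. At these low signals it was -3.77 after adding 1 and -2.25 after adding 64. In the apex it had 205, 495, 251, 229 and 173 in PE2.0 rats, against 381, 344, 404, 408 and 344 in vehicle rats. Replicate 2 lay above all vehicle arrays and the other 4 below them, and the log2 fold change was -0.54 ± 0.38 (limma adjusted p = 0.803). Of 8 listed lens markers 7 were measured, of which 0 rose and 1 fell, with a summed signal of 249.8 to 391 in PE2.0 outflow and 385 to 500.5 in vehicle outflow. The one that fell, Bfsp2, a lens filament protein, averaged 46.6 in PE2.0 outflow and 103 in vehicle outflow (log2 fold change -0.95 ± 0.19, limma adjusted p = 0.000436). Cryaa, the lens alpha crystallin, averaged 13.2 in PE2.0 outflow and 22.3 in vehicle outflow and was not called. The part of these markers in the fall of Crybb1 was not tested.

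Magix encodes a PDZ-domain protein from the X chromosome whose role is little described. It had 60.6, 123, 27.9, 23.4 and 8.95 in PE2.0 outflow, against 373, 317, 380.1, 349 and 582 in vehicle outflow. The log2 fold change was -2.91 ± 0.31, or 7.54-fold lower, and it was -3.48 after adding 1 and -2.10 after adding 64. In the apex it had 174, 221, 156, 219 and 209.5 in PE2.0 rats, against 240.5, 304, 273, 320.2 and 303 in vehicle rats. The apex groups did not overlap, and the log2 fold change of -0.53 ± 0.31 was not called (limma adjusted p = 0.762).

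Set against the apex of the same treatment, the 10 genes were lower in the outflow of PE2.0 rats. In vehicle rats they were slightly higher in the outflow, and the regions overlapped. In PE2.0 rats, the outflow minus apex difference on the log2 scale was -2.23 for Crybb1, -2.09 for Klhl38, -2.08 for Phlda1, -2.07 for Aqp7, -2.01 for Txlnb, -1.96 for Magix, -1.81 for Macrod1, -1.72 for Phyhip, -1.67 for Cyp2e1 and -1.47 for Lynx1. All 5 PE2.0 outflow arrays were below all 5 PE2.0 apex arrays in each of the 10 genes, taken by the brighter probe set. For the other Txlnb probe set 4 of the 5 were below. This count follows from how the genes were chosen, and its share over all probe sets was not computed. In vehicle rats the same difference was positive in all 10, at 0.04 to 0.43 with a median of 0.11. The arrays of the regions overlapped in all 10. The share of all probe sets with such an overlap was not computed either. Over all genes the median difference was 0.09 in PE2.0 rats and -0.005 in vehicle rats. The PE2.0 effect in the outflow minus that in the apex had a median of -2.08 and a range of -2.52 to -1.58. These regional values use the outflow arrays that chose the genes and carry no test.

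**Figure D2:**
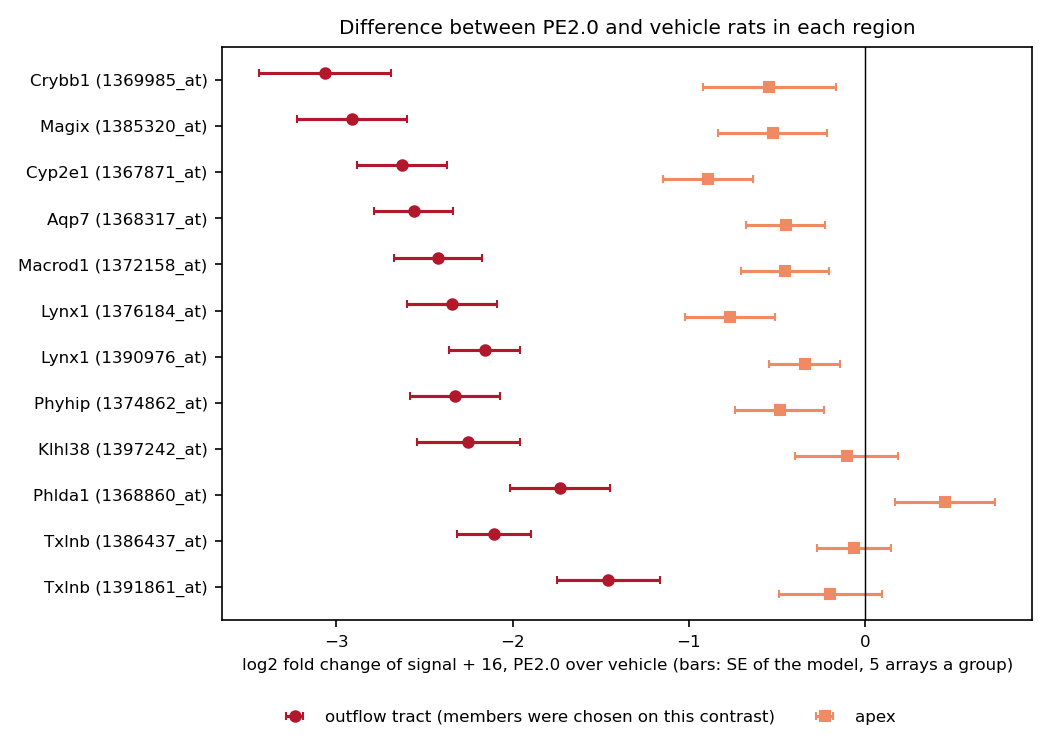
Log2 fold change of PE2.0 against vehicle for each of the 12 probe sets in the outflow and the apex, with bars of 1 standard error. The outflow values lie between -3.06 and -1.46, and the apex values lie between -0.89 and 0.45.

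By the median coefficient of variation, the 10 genes varied most among the PE2.0 outflow arrays. This coefficient of variation had a median of 47.3% in PE2.0 outflow (31.3 to 93.5%) and 24.7% in vehicle outflow (7.34 to 31.8%), and of 18.9% in PE2.0 apex and 10.3% in vehicle apex. The lowest PE2.0 outflow array was replicate 5 in 7 genes and replicate 4 in 3, and these were the lowest pair in 8 of the 10. The median deviation of the 10 genes from the vehicle outflow mean was -1.79, -2.11, -2.09, -3.07 and -3.24 on the log2 scale in replicates 1 to 5. The same for the heart muscle markers was -0.76, 0.15, -0.81, -1.30 and -1.42. On each array the median of the 10 genes was further below the vehicle mean than that of the muscle markers, and on replicate 2 the marker median was not below it. The 10 genes were chosen for large falls on these arrays and the markers were not. This order therefore largely follows from the choice and is no test. With each array's marker median subtracted, the median outflow log2 fold change of the 10 genes was -1.55 instead of -2.38. Single markers ranged from -1.66 for Hrc to -0.44 for Myl2, so this value depends on which markers are listed. With all 5 PE2.0 arrays and no subtraction the median stays at -2.38. With PE2.0 replicates 1 and 3 alone, whose GAPDH ratios were nearest the other groups, the median without subtraction was -1.89.

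**Figure D3:**
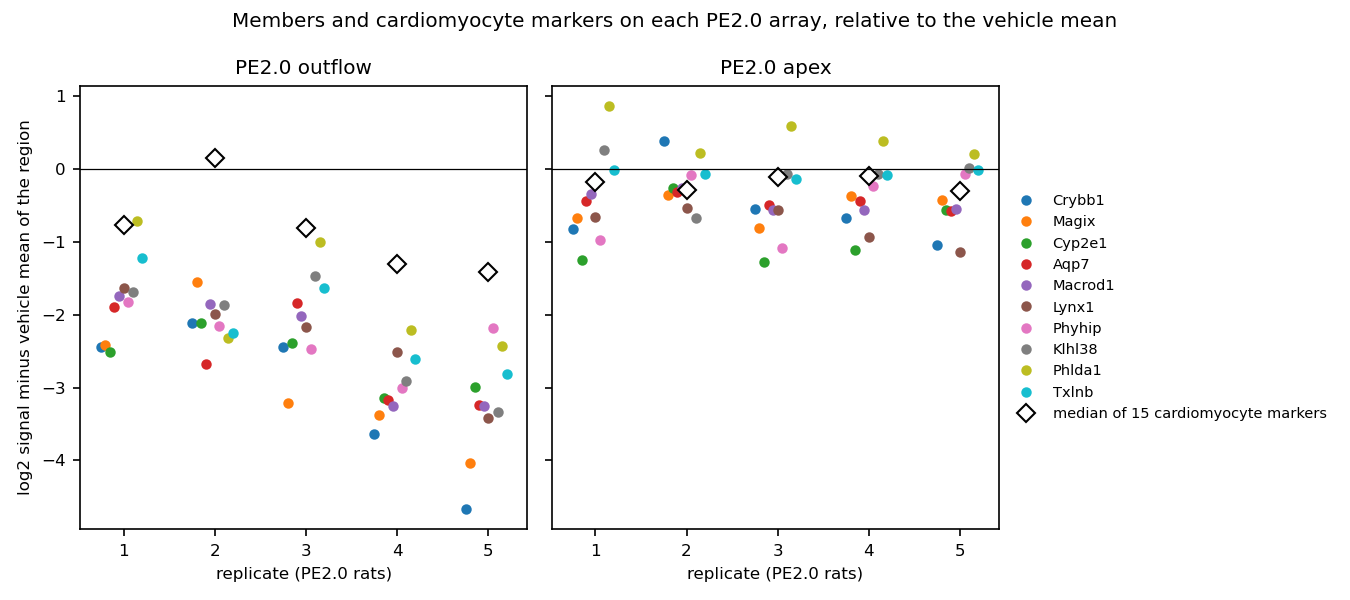
Log2 signal minus the vehicle mean of the same region for each PE2.0 array, with 1 coloured point per gene and a diamond at the median of the 15 heart muscle markers. Outflow replicates 4 and 5 are lowest, with medians of the 10 genes at -3.07 and -3.24, and the apex medians lie between -0.56 and -0.26.

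Over all 20 arrays the 45 pairs of the 10 genes correlated at r = 0.72 to 0.98 (median 0.92). The points share the low PE2.0 outflow group, which the choice of genes built in. Over the 15 arrays outside that group, r was -0.51 to 0.96 with a median of 0.51. Aqp7 and Lynx1 were most alike there, at 0.96, and Phlda1 and Phyhip least alike, at -0.51. Among 8122 other genes of sufficient signal, the closest over 20 arrays to Aqp7 was Slc25a20 (r = 0.99, and 0.91 over the 15 arrays) and to Macrod1 was Crat (0.99 and 0.92). Magix was closest to Pink1 (0.98 and 0.93), Cyp2e1 to Slc27a1 (0.98 and 0.89), Lynx1 to Csdc2 (0.98 and 0.90) and Crybb1 to Pccb (0.98 and 0.85). The likeness was weaker outside PE2.0 outflow for each of the 10 genes, and it dropped most for 4 of them. These were Phyhip with Mrpl44 (0.95 and 0.77), Phlda1 with Clu (0.95 and 0.61), Txlnb with Echs1 (0.99 and 0.52) and Klhl38 with Homer1 (0.97 and 0.28). The next closest were Hsd17b10 for Aqp7 (0.99 and 0.91), Rpl3l for Macrod1 (0.99 and 0.95) and for Magix (0.98 and 0.92), Pptc7 for Cyp2e1 (0.97 and 0.91), Fitm1 for Lynx1 (0.97 and 0.90) and Me3 for Crybb1 (0.98 and 0.86). For the other 4 genes they were Rab20 for Phyhip (0.95 and 0.71), Dtna for Phlda1 (0.95 and 0.50), Etfdh for Txlnb (0.99 and 0.48) and Ndufs1 for Klhl38 (0.97 and 0.23). These correlations describe arrays of 4 groups that share a scaling.

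The families and pathways around the 10 genes were listed by name and not by direction, but with earlier results of these data known. Of 248 listed relatives 209 were measured. In the outflow 39 of them rose and 59 fell, and 111 did not pass. Lower calls made up 28.2% and higher calls 18.7% of the relatives (46.9% together), against 18% lower, 26.3% higher and 44.3% together of all genes. Their median log2 fold change was -0.06, against 0.10 over all genes. With PE2.0 replicates 1 and 3 alone 22 rose and 46 fell, and with each array centred on its median, which gave a median of all probe sets of -0.08 instead of 0.05, 28 rose and 64 fell. In the apex 0 of the 209 were called, against 0.0129% of all probe sets. There 13 of the 209 had an unadjusted limma p under 0.05, against 7.47% of all probe sets. Up to 3 called relatives of a list are named below, 27 in all. For 19 of them the PE2.0 effect differed between outflow and apex by the test of that difference, against 24.3% of all genes. The 27 were picked for their outflow p, and the difference holds the same outflow contrast. This count therefore largely follows from the pick.

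Glycerol and aquaporin genes, the relatives of Aqp7, went mostly lower: 13 of 22 fell, 2 rose, and the median was -0.68. Lpin1, a phosphatidate phosphatase on the path to triglyceride, averaged 851 ± 266 in PE2.0 outflow and 2862 ± 474 in vehicle outflow (SD, n = 5 each; log2 fold change -1.77 ± 0.17, limma adjusted p = 3.86e-07). Pnpla2, the lipase that starts the breakdown of stored triglyceride, fell by 1.36 ± 0.16 on the log2 scale (adjusted p = 2.39e-06). Gk, glycerol kinase, which uses the glycerol that Aqp7 carries, averaged 273 ± 59.6 in PE2.0 outflow and 513 ± 65.6 in vehicle outflow (-0.89 ± 0.14, adjusted p = 4.11e-05). The kinase and the lipase moved in the direction of the channel. Each had all 5 PE2.0 arrays below all vehicle arrays, as did 9.98% of all probe sets. Both were named for their small outflow p, so this separation largely follows from the pick.

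The P450 and alcohol oxidation list around Cyp2e1 was split, with 7 of 36 higher, 6 lower and a median of 0.08. Cat, catalase, a peroxisomal enzyme that also oxidises ethanol, averaged 5445 ± 894 in PE2.0 outflow and 12066 ± 1480.1 in vehicle outflow (-1.15 ± 0.12, limma adjusted p = 8.54e-07). Cyp4f1, a fatty acid hydroxylase, fell by 0.86 ± 0.14 on the log2 scale (adjusted p = 7.32e-05). Cyp1b1, an oestrogen-oxidising P450, went the other way, with 3801 ± 1379 in PE2.0 outflow and 964 ± 332 in vehicle outflow (1.93 ± 0.30, adjusted p = 4.0e-05). 

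ADP-ribose enzymes, the setting of Macrod1, changed in both directions, with 9 of 27 higher and 10 lower. Art1 and Art3, mono-ADP-ribosyltransferases of the cell surface, had log2 fold changes of -2.08 ± 0.24 (limma adjusted p = 1.68e-06) and -1.30 ± 0.15 (adjusted p = 1.63e-06). Another Art1 probe set gave -2.39 and was also called. Parp1, the main polymerase of ADP-ribose at DNA breaks, averaged 2102 ± 285 in PE2.0 outflow and 3617 ± 384 in vehicle outflow (-0.78 ± 0.11, adjusted p = 2.26e-05).

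Peroxisomal genes near Phyhip fell in 7 of 14 cases and rose in 1, with a median of -0.43. Pecr, a peroxisomal enoyl-CoA reductase, averaged 755 ± 213 in PE2.0 outflow and 1935 ± 214 in vehicle outflow (-1.38 ± 0.15, limma adjusted p = 1.27e-06). Amacr, the racemase of branched fatty acids, fell by 0.88 ± 0.11 (adjusted p = 6.98e-06), and Hsd17b4, an enzyme of peroxisomal beta-oxidation, fell by 0.71 ± 0.10 (adjusted p = 1.22e-05) on the log2 scale.

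Kelch genes around Klhl38 were mixed, with 14 of 41 lower and 9 higher. Klhl33 averaged 167 ± 87.8 in PE2.0 outflow and 651 ± 32.8 in vehicle outflow (-2.01 ± 0.24, limma adjusted p = 2.75e-06). Klhl21, a kelch protein of cell division, gave -1.28 ± 0.14 (adjusted p = 1.6e-06), although its other probe set at -0.56 missed the threshold (adjusted p = 0.0552). Klhl5 rose by 1.23 ± 0.15 (adjusted p = 4.35e-06). Taxilins and syntaxins, around Txlnb, rose in 5 of 18 cases and fell in 3. Stx4, a syntaxin of the cell membrane, fell by 0.41 ± 0.10 (adjusted p = 0.00211). Stx3 gave 0.67 ± 0.15 (adjusted p = 0.00134) and the syntaxin-binding Stxbp5 0.55 ± 0.13 (adjusted p = 0.00246), but their other probe sets, at -0.16 for Stx3 and 0.21 and 0.35 for Stxbp5, were not called. Stxbp5 missed the threshold with PE2.0 replicates 1 and 3 alone (adjusted p = 0.0558).

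In the Ly6 and nicotinic list around Lynx1 few genes were called, with 3 of 29 higher and 3 lower. Chrnd, the delta subunit of the muscle nicotinic receptor, averaged 49.5 ± 33.9 in PE2.0 outflow and 137 ± 24.5 in vehicle outflow (-1.40 ± 0.31, limma adjusted p = 0.00121). Ly6e gave 0.62 ± 0.13 (adjusted p = 0.000917) on its brightest probe set and 0.02 on another, and Lypd6b gave 0.82 ± 0.20 (adjusted p = 0.00267) at very dim signals of 17.6 ± 12.2 in PE2.0 outflow and 2.00 ± 0.64 in vehicle outflow. Markers of nerve and Schwann cells, another home of Ly6 proteins, rose in 5 of 6 measured genes. Their summed signal was 2069 to 2781 in PE2.0 outflow and 587 to 618 in vehicle outflow. The one not called, Snap25, was very dim, with means of 9.02 in PE2.0 outflow and 6.90 in vehicle outflow. The part of these markers in the fall of Lynx1 was not tested.

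The relatives of Phlda1 that were called in the outflow were higher, where Phlda1 was lower. Phlda3, a p53 target that restrains Akt signalling, averaged 1386 ± 170.4 in PE2.0 outflow and 466 ± 93.6 in vehicle outflow (1.55 ± 0.16, limma adjusted p = 5.91e-07). Phlda2, an imprinted growth-restraining gene of the placenta, gave 1.02 ± 0.36 (adjusted p = 0.035) at dim signals, with 2 of 5 PE2.0 arrays above all vehicle arrays, and was lost in 10 of 21 other settings. Besides Phlda1, 5 genes of the family were measured, of which these 2 rose and 0 fell.

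Of the crystallins other than Crybb1, 1 of 15 was called higher and 1 lower, and the median was -0.16. Many were very dim, such as Crygc, with means of 7.19 in PE2.0 outflow and 4.07 in vehicle outflow. At such signals the value added before the logarithm shrinks any change, so a missing call does not show a lack of change. The other beta crystallins, none called, gave -0.85 for Cryba4, -0.57 for Crybb3, -0.22 for Cryba2, 0.08 for Cryba1 and 0.27 for Crybb2. Crym, a thyroid hormone binding protein, averaged 1017 ± 344 in PE2.0 outflow and 580.4 ± 52.3 in vehicle outflow (0.74 ± 0.19, limma adjusted p = 0.00504), and missed the threshold with the GAPDH ratio in the model (adjusted p = 0.132). Cryab, a chaperone abundant in heart muscle, averaged 28915 ± 13657 in PE2.0 outflow and 43789 ± 2560 in vehicle outflow (-0.70 ± 0.19, adjusted p = 0.00685), with 4 PE2.0 arrays below and 1 above all vehicle arrays, and gave -0.31 after quantile normalization (adjusted p = 0.0508). MAGI scaffold genes, the nearest listed to Magix, gave -0.50 ± 0.13 for Magi3 (adjusted p = 0.00358) and -0.44 ± 0.13 for Magi1 (adjusted p = 0.0107). Other Magi3 probe sets, at 0.20 and 0.14, were not called. Of 4 other Magi1 probe sets, that at -0.62 was called (adjusted p = 0.0168) and those at -0.87, -0.12 and 0.00 were not. Magi1 missed the threshold with PE2.0 replicates 1 and 3 alone (adjusted p = 0.0854).

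**Figure D4:**
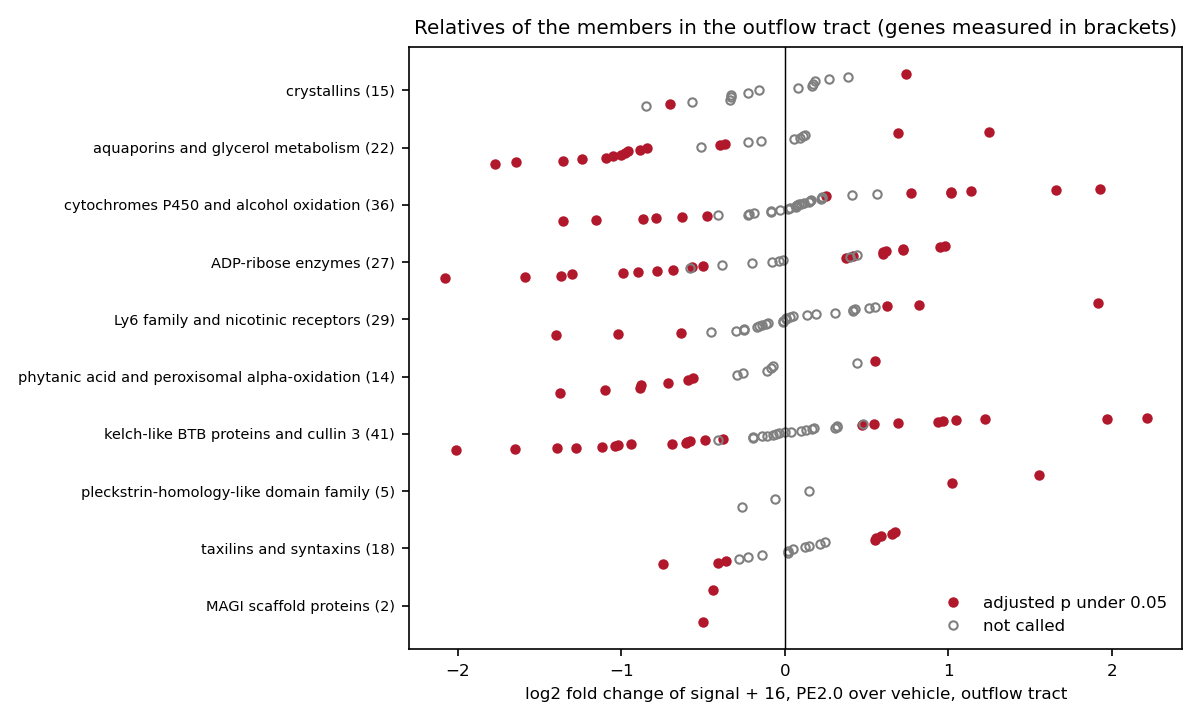
Log2 fold change of PE2.0 against vehicle in the outflow for the 209 measured relatives in 10 lists, 1 point per gene, filled where the limma adjusted p was under 0.05. The points spread on both sides of 0 in most lists, and Art1 (-2.08) and Klhl33 (-2.01) are the lowest.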

How the data were processed

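The authors deposited 1 linear signal intensity per probe set and array, per the labels. Every array had a mean of about 500.2 without the outer 2% at either end, so the arrays had been scaled to a common level. The software is not given in the sources used here. Of 31099 probe sets, 57 were controls and 31042 were tested. The platform annotation gave 20826 a single symbol, 436 several and 9780 none. Each of 14217 genes was represented by its brightest probe set.

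Signals were transformed to log2 after adding 16. Group means of all 20 arrays were fitted with limma 3.58.1 in R 4.3.3, and two-sided p-values were adjusted by the Benjamini-Hochberg method over 31042 probe sets, with a call at 0.05. Fold changes are of the signal plus 16. Figures were drawn with Python 3.11.15 and matplotlib 3.10.9. Precision is limited by having 5 arrays a group.

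The members, the lists of relatives and the cell type markers were chosen with earlier results of these data known. The text names up to 3 relatives of each list with the smallest adjusted p among those called.

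For the pairing check, each array's departures from its group mean were correlated over 12310 probe sets. Apex and outflow arrays of the same number correlated at 0.181 to 0.283 in PE2.0 rats and 0.181 to 0.275 in vehicle rats, so numbers mark rats within a treatment. PE2.0 and vehicle arrays of the same number correlated at -0.283 to 0.103 in the outflow and -0.075 to 0.154 in the apex and were not paired. Alternatives covered scaling, the added value, dim probe sets, variances, array weights, the GAPDH ratio, replicate blocks and left-out arrays.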

Additional observations from a re-analysis of the deposited data

Results flagged for a closer look

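Of 48 groups of 5 arrays over the 12 probe sets of the 10 genes, 4 held an array whose gap to its nearest neighbour exceeded Dixon's 95% critical value, where chance gives about 1 in 20, or 2.4. Crybb1 had 495 in PE2.0 apex replicate 2, with the nearest array at 251. Magix had 582 in vehicle outflow replicate 5, with the nearest at 380.1. Phyhip had 339 in vehicle apex replicate 1, with the nearest at 243. The other Txlnb probe set had 6052 in vehicle outflow replicate 1, with the nearest at 5285. No group was affected in more than 1 of the genes on the same array.

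The PE2.0 effect in the outflow minus that in the apex was tested for the 27 named relatives and was past the threshold in 19 (limma adjusted p = 0.000411 to 0.0446). With the rat as a random block, a setting chosen after seeing the data, the same 19 passed (adjusted p = 0.00024 to 0.0341). On the log2 scale this difference was -1.90 for Art1, -1.65 for Lpin1, -1.62 for Klhl33, -1.26 for Pecr, -1.24 for Pnpla2, -1.16 for Art3 and -1.12 for Klhl21. It was -0.97 for Cyp4f1, -0.96 for Cat, -0.88 for Parp1, -0.78 for Amacr, -0.76 for Gk, -0.71 for Magi3 and -0.64 for Hsd17b4. It was positive at 1.45 for Cyp1b1, 1.32 for Phlda3, 0.97 for Klhl5, 0.67 for Stx3 and 0.55 for Stxbp5. The relatives were named for their outflow p, and this difference holds the same outflow contrast. The number past the threshold therefore largely follows from the pick. For the 10 genes themselves the difference was not tested, since they were selected on the outflow arrays.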

How the results depend on the processing

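The 10 genes kept a negative outflow value in every setting tried, and 0 of them were called in the apex under any of the 22 alternatives. Their outflow median was -2.56 to -2.26 when an array was left out, and their apex median -0.53 to -0.42. Relative to the heart muscle markers, a setting chosen after seeing the data, the outflow median was -1.55. With PE2.0 outflow replicates 1 and 3 alone, 22 relatives were higher instead of 39. Probe sets called in the apex, 4 in all, became 1 after quantile normalization, 15 without the 40% dimmest, 17 adding 64, 23 with an intensity trend and robust variances, 31 with array weights and 7 with the GAPDH ratio, and 1 to 23 leaving out an array. The replicate number as a fixed block gave 1, and as a random block within treatment 4, and neither block moved another count by over 1.5 times. Leaving out PE2.0 apex replicate 2 turned Klhl38 in the apex to 0.036, within a range of -0.19 to 0.036. Among single outflow values, replicates 1 and 3 alone moved Phlda1 to -0.86, Aqp7 to -1.86 and Txlnb to -1.43. Adding 64 moved Phyhip. The setting relative to the heart muscle markers moved each of the 10 genes except Crybb1 and Magix by more than the spread between replicates. The cause of these shifts was not tested. Centring arrays on their median gave 4415 higher and 5966 lower outflow calls, and quantile normalization 5177 and 5367, instead of 6083 and 4637. With 5 arrays a group, the low PE2.0 outflow signals limit Crybb1, Magix and Phyhip most.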
